A study of Homo sapiens with 6 samples.

Results

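The genes described here encode the histone deacetylases, the sirtuins and the subunits of 4 corepressor complexes built around deacetylases: NuRD, SIN3, CoREST and NCoR. The list of 45 genes was taken by symbol from the deposited count table, and all 45 were found among its 30651 genes. RNA came from PC-3 cells, an established human line of metastatic prostate cancer, grown in DMEM/F12 with serum. The 3 Ctrl libraries carry the column prefix NC, and the 3 libraries of the MTA1 group carry the prefix shMTA1, the usual form of name for a short hairpin RNA against MTA1. The labels mention lentivirus and stable clone screening, but give neither the number of hairpins or clones nor separate cultures. Any p-value here thus reflects the spread among 6 libraries, and that spread may be technical.

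Histone deacetylases remove acetyl groups from lysines, and acetylated histones are typical of active promoters and enhancers. The class I enzymes HDAC1 and HDAC2 work in complexes. NuRD pairs them with a nucleosome remodeller (CHD3 or CHD4), an MTA scaffold, a methyl-CpG-binding-domain protein (MBD2 or MBD3), GATAD2A or GATAD2B, and the histone-binding proteins RBBP4 and RBBP7. SIN3 builds on the scaffolds SIN3A and SIN3B, CoREST links the deacetylases to the demethylase KDM1A, and NCoR activates HDAC3. The sirtuins are a separate, NAD-dependent family.

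Many subunits come as pairs of paralogs, and several results concern the balance within a pair. The sequences of 2 such pairs are shown because they tell how far apart the paralogs lie where they are most alike. For each pair, the 90 coding bases with the highest identity are given 5′ to 3′ from GENCODE release 29 (GRCh38), with bases that differ from the paralog in capitals.
RBBP4: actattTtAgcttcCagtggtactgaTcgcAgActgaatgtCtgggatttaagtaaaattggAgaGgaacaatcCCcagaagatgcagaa
RBBP7: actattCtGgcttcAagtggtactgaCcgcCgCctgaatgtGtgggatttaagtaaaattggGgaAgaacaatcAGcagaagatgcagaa
HDAC1: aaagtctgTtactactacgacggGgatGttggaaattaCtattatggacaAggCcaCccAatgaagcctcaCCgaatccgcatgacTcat
HDAC2: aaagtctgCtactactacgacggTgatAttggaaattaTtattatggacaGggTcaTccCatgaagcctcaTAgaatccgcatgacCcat

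The RBBP4 stretch lies on the plus strand at chr1:32672474-32672678 and the RBBP7 stretch on the minus strand at chrX:16849265-16852098. The HDAC1 stretch lies on the plus strand at chr1:32292197-32302688 and the HDAC2 stretch on the minus strand at chr6:113959951-113970878. Each covers parts of 2 coding exons. Even there, 11 of the 90 bases differed in either pair. Over the aligned coding sequence, RBBP4 and RBBP7 were 76.2% identical with no shared run longer than 26 bases, and HDAC1 and HDAC2 were 75.7% identical with none longer than 17 bases.

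The libraries held 29909172 to 33849262 counts. MTA1 (ENSG00000182979.18, chromosome 14) had 1185, 1331 and 1352 counts in Ctrl and 528, 572 and 519 in the MTA1 group (replicates 1 to 3, in order, as for all genes below), and its level was 43.4% of that in Ctrl (log2 fold change -1.21 ± 0.054, edgeR adjusted p = 4.3e-13). Higher and lower always refer to the MTA1 group, with Ctrl as the reference. Levels below are CPM (counts scaled to the TMM-adjusted library size) as mean ± SD over n = 3 libraries, fold changes are log2 of the MTA1 group over Ctrl ± SE, and adjusted p-values are those of edgeR's quasi-likelihood test over all 15423 tested genes. Markers of PC-3 cells were present. KRT8, KRT18, VIM, CD44 and EPCAM summed to 4193 to 4406 CPM in Ctrl and 4242 to 4537 CPM in the MTA1 group. Most of this sum was KRT8 and KRT18, and the genes did not move together. CD44 (log2 fold change 0.73 ± 0.0396, adjusted p = 5.2e-12), EPCAM (0.55 ± 0.0735, 2.4e-06) and VIM (0.41 ± 0.0423, 8.1e-08) were higher. KRT8 was lower (-0.29 ± 0.0418, 5.6e-06), and KRT18 did not pass (-0.08 ± 0.0469). The prostate marker KLK3 had at most 1 count. Leukocyte markers, with PTPRC at no more than 3 counts in a library, summed to 1.36 to 2.05 CPM in Ctrl and 0.883 to 1.38 CPM in the MTA1 group. Fibroblast markers, mostly COL1A1, summed to 35.4 to 39.7 CPM in Ctrl and 20.9 to 21.4 CPM in the MTA1 group, and endothelial markers to 10.8 to 12.4 and 10.3 to 10.8 CPM. The part of these differences in the results below was not tested.

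More of the 45 genes fell than rose. At an adjusted p under 0.05, 30 members passed (66.7%, against 58.1% of all tested genes). Of these, 22 were lower (48.9%, against 28.6% of all tested genes) and 8 were higher (17.8%, against 29.5%). The other 15 did not pass. Most of the changes were small. The median log2 fold change of the members was -0.14 and that of all tested genes 0.0015, and the median size of the change, whatever its sign, was 0.22 for the members and 0.29 for all genes. The medians of the members and of all tested genes became -0.07 and 0.07 with scaling by library size only, -0.07 and 0.06 on log2(FPKM + 0.1), and -0.03 and 0.03 on log2(FPKM + 1). When the test asked for at least a 1.2-fold change, 7 members passed (15.6%, against 30.1% of all tested genes). These were MTA1, RBBP7, HDAC1, HDAC9 and SIRT5 as lower and SIN3A and SIRT7 as higher. The groups did not overlap in CPM for 33 members (73.3%, against 62.7% of all tested genes). With scaling by library size only, 19 members were lower and 12 higher, and on log2(FPKM + 0.1) and log2(FPKM + 1) 15 were lower and 9 higher. All genes shifted in the same direction in these settings. Their share of higher genes among the called ones was 50.8% in the main fit. It was 60.1% with scaling by library size only, 60.1% on log2(FPKM + 0.1) and 60.3% on log2(FPKM + 1). Without Ctrl replicate 1, the count of higher members dropped to 5, as CHD3, HDAC3 and SIRT6 no longer passed.

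**Figure D1:**
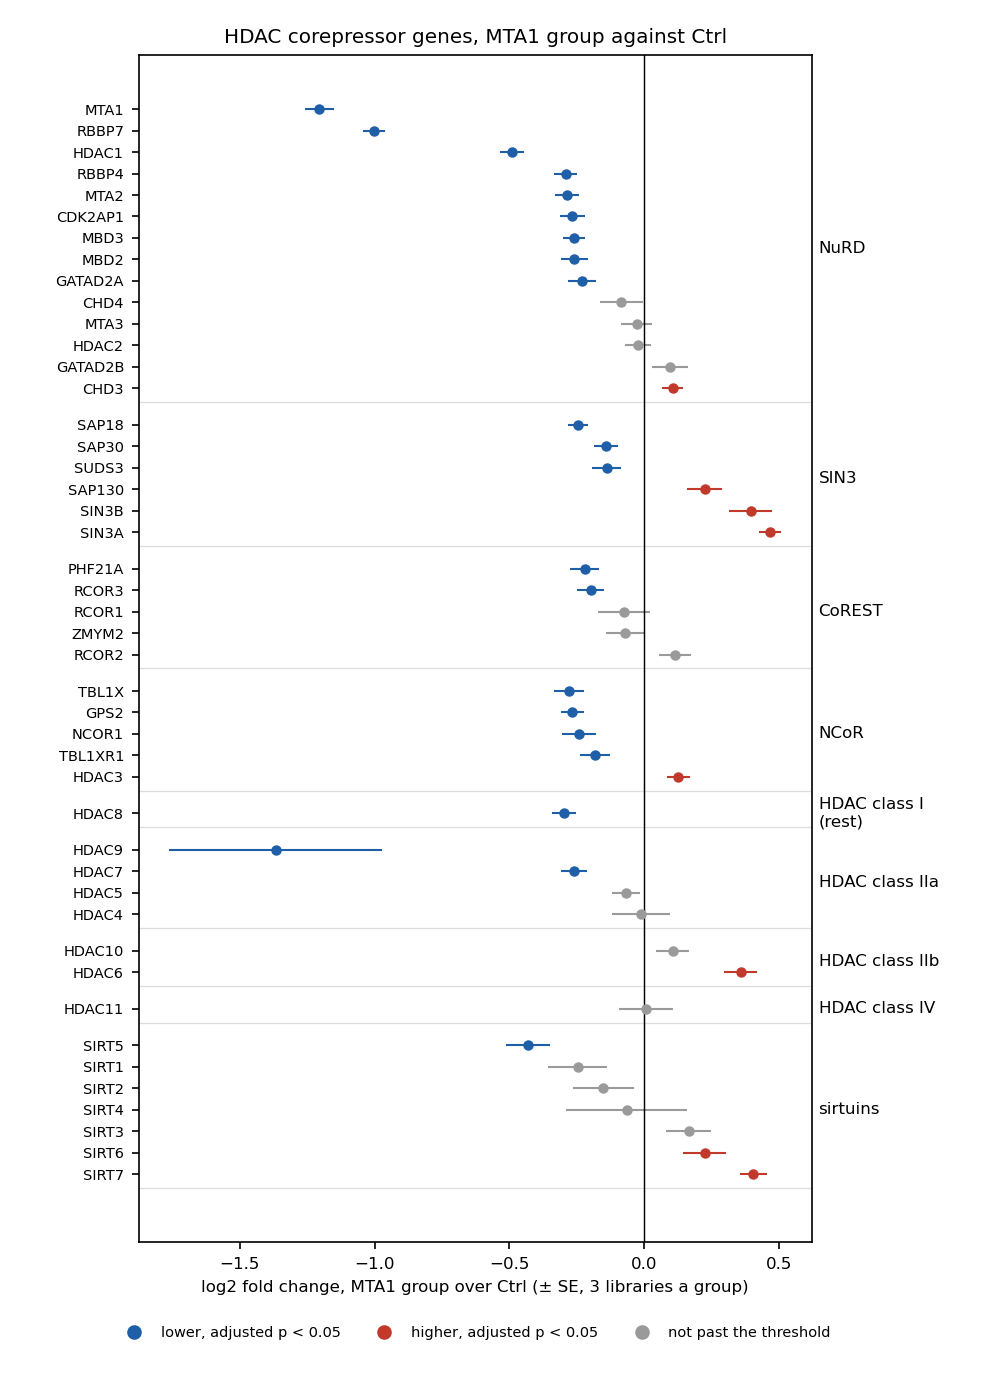
Log2 fold change of the MTA1 group over Ctrl (x axis, ± SE, 3 libraries a group) for the 45 genes, by complex and class, with members shared between groups drawn once. Blue marks the 22 lower and red the 8 higher genes at an adjusted p under 0.05. MTA1, RBBP7 and HDAC9 stand furthest to the left, and SIN3A (0.47) furthest to the right.

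Of the 14 NuRD genes, 9 were lower (64.3%, against 28.6% of all tested genes), 1 was higher (7.14%, against 29.5%) and 4 did not pass. At the minimum fold of 1.2, MTA1, RBBP7 and HDAC1 were lower (3 genes, 21.4%, against 14.7% of all tested genes). None was higher (against 15.5%), so 21.4% passed in either direction, against 30.1%. With the targeted MTA1 left aside, 2 of 13 were lower at that fold (15.4%, against 14.7%). Both histone-binding genes fell. RBBP7 (ENSG00000102054.18, chromosome X), a WD-repeat protein that binds histone H4, had 4839, 5126 and 5180 counts in Ctrl and 2420, 2481 and 2395 in the MTA1 group. Its level fell from 157 ± 0.516 to 78.3 ± 1.11 CPM (log2 fold change -1.003 ± 0.0395, adjusted p = 6.2e-14). The replicates of each group were close together. In bulk RNA, less message per cell and fewer cells with the message cannot be told apart. RBBP4 (ENSG00000162521.19, chromosome 1), its close paralog, had 2473, 2652 and 2554 counts in Ctrl and 1956, 2061 and 2040 in the MTA1 group. It fell from 79.5 ± 1.73 to 65.0 ± 0.779 CPM (-0.29 ± 0.0424, adjusted p = 6.7e-06). The groups did not overlap for either gene. Of the 50-base words in the longest annotated RBBP4 transcript, 5.73% also occur in another gene, mainly processed pseudogenes of RBBP4, and 18.0% of its exon bases overlap SYNC on the opposite strand, so its counts are less certain than those of RBBP7 (2.54% of words shared). The strand setting of the counting is not given in the sources used here.

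Of the deacetylases of NuRD, HDAC1 fell and HDAC2 did not pass. HDAC1 (ENSG00000116478.12, chromosome 1), the NuRD gene with the highest FPKM, had 6244, 7399 and 7087 counts in Ctrl and 4568, 4709 and 4944 in the MTA1 group. Its level fell from 214 ± 11.96 to 153 ± 5.88 CPM (log2 fold change -0.49 ± 0.0454, adjusted p = 1.5e-08). Each MTA1 library lay below each Ctrl library. HDAC2 (ENSG00000196591.12, chromosome 6) had 9834, 9216 and 10095 counts in Ctrl and 9427, 9460 and 8831 in the MTA1 group. Its level was 302 ± 18.9 CPM in Ctrl and 297 ± 12.4 CPM in the MTA1 group, with overlapping groups (-0.02 ± 0.0467, adjusted p = 0.70). Scaling by library size only moved this value to 0.05, still short of the threshold.

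The scaffolds, adaptors and small subunits of NuRD mostly fell as well. MTA2, the most abundant MTA paralog per length, had 3361, 3446 and 3802 counts in Ctrl and 2710, 2813 and 2864 in the MTA1 group, and fell by 0.29 on the log2 scale (SE 0.0442, adjusted p = 1.3e-05). MTA3 had 931, 1098 and 1030 counts in Ctrl and 913, 950 and 1031 in the MTA1 group (-0.03 ± 0.0573, adjusted p = 0.69; 0.04 with scaling by library size only), and its groups overlapped. Neither paralog passed as higher. CDK2AP1, a small subunit also known as a binder of the kinase CDK2, had 1689, 1796 and 1843 counts in Ctrl and 1378, 1510 and 1387 in the MTA1 group (-0.27 ± 0.0462, adjusted p = 5.2e-05). MBD2, which binds methylated DNA (-0.26 ± 0.0512, adjusted p = 2.2e-04), MBD3, which largely lacks that binding (-0.26 ± 0.0419, adjusted p = 2.3e-05), and GATAD2A, a zinc finger subunit (-0.23 ± 0.0507, adjusted p = 6.1e-04), fell too. GATAD2B stood at 0.10 and did not pass, though scaling by library size only made it pass as higher (adjusted p = 0.047). With MTA1 itself left aside, 8 of 13 NuRD genes were lower (61.5%, against 28.6% of all tested genes) and 1 higher (7.69%, against 29.5%), with a median of -0.26.

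**Figure D2:**
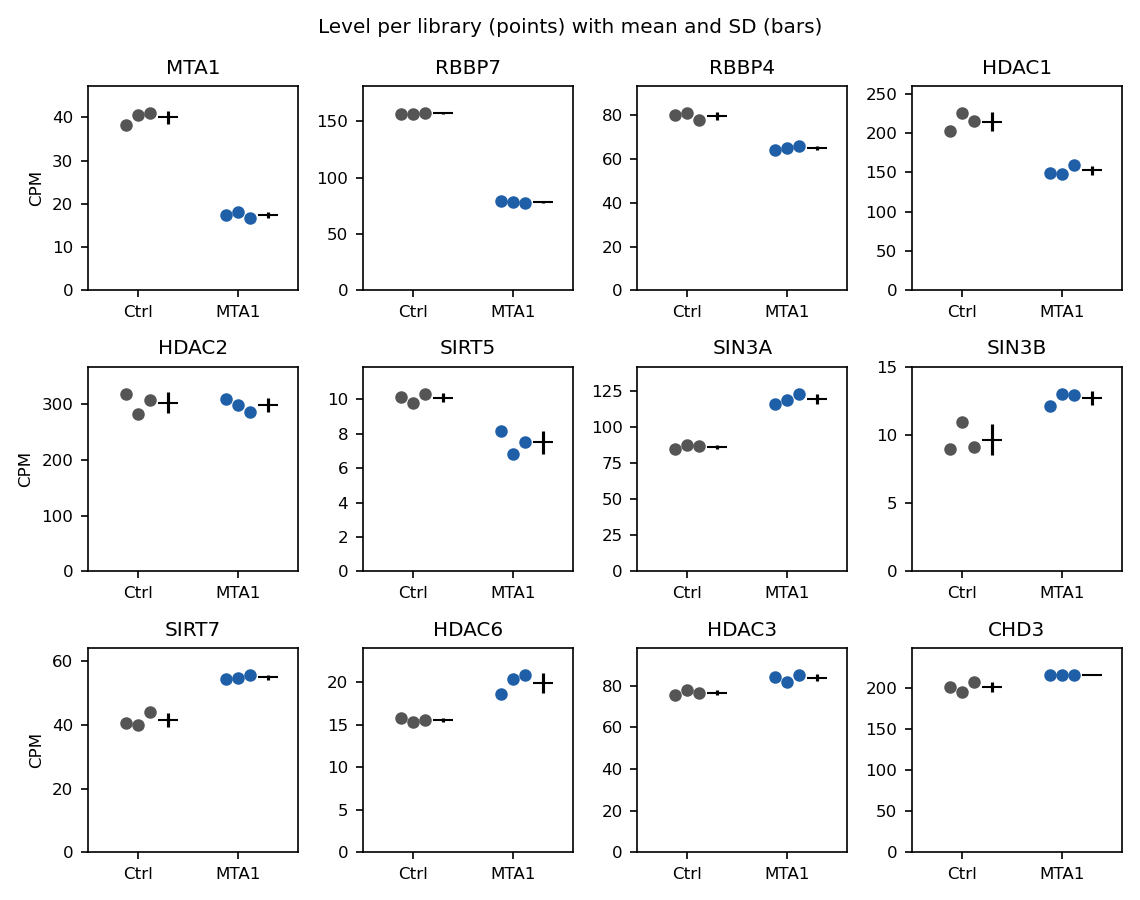
Level in CPM (y axis, from 0) of 12 members in each library, with the mean and SD of the 3 libraries beside the points. RBBP7 in the MTA1 group lies at 78.3 CPM against 157 CPM in Ctrl, HDAC2 overlaps between groups, and SIN3A, SIN3B, SIRT7 and HDAC6 lie higher in the MTA1 group.

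Of the remodellers of NuRD, CHD3 rose slightly and the CHD4 row did not pass. CHD3 had 6195, 6370 and 6812 counts in Ctrl and 6578, 6849 and 6703 in the MTA1 group, a rise of 0.11 ± 0.0390 (adjusted p = 0.026). The CHD3 call was lost when replicate 1 (adjusted p = 0.084) or 2 (0.16) of Ctrl or replicate 2 of the MTA1 group (0.069) was left out, and with a correction for GC content and length (0.85). CHD4 (ENSG00000111642.16, chromosome 12), the other remodeller, had only 533, 493 and 490 counts in Ctrl and 506, 468 and 407 in the MTA1 group (-0.08 ± 0.0803, adjusted p = 0.38). In GENCODE release 29, 86.8% of the 50-base words of the longest CHD4 transcript also occur in a second protein-coding gene on the same strand, ENSG00000285238.2, listed in the files as RP5-940J5.10. That gene had 15058, 14204 and 15722 counts in Ctrl and 15296, 17009 and 15679 in the MTA1 group. It rose from 466 ± 28.6 to 514 ± 19.1 CPM (0.14 ± 0.0460, adjusted p = 0.012). The CHD4 value is uncertain, as the labels and headers do not tell how reads of shared exons were assigned. The summed level of both genes was 482 CPM in Ctrl and 529 CPM in the MTA1 group.

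Other members shared exons as well. Of the 45 genes, 6 had 10% or more of their 50-base words in another gene. HDAC10 shared 77.6% with MAPK12, a kinase gene that rose from 64.4 ± 1.32 to 82.01 ± 4.02 CPM (log2 fold change 0.35 ± 0.0459, adjusted p = 1.8e-06). HDAC10 itself stood at 23.6 ± 1.38 CPM in Ctrl and 25.4 ± 1.66 CPM in the MTA1 group (0.11 ± 0.0605, adjusted p = 0.14), and passed as higher with scaling by library size only (0.023), without MTA1 replicate 1 (0.033) and after the correction for GC content and length (0.037). GPS2 shared 59.7% with RP11-542C16.2, which was much lower than GPS2, at 5.46 CPM in Ctrl and 7.49 CPM in the MTA1 group. The summed rows of GPS2 and that gene reached 84.7% of the Ctrl level in the MTA1 group, against 83.1% for GPS2 alone. MBD3 shared 13.4%, mainly with the gene ENSG00000267059.2, listed in the files as AC005943.2 and named AC005943.1 in GENCODE release 29, which fell from 146 ± 5.87 to 108 ± 10.2 CPM (-0.43 ± 0.0544, adjusted p = 1.1e-06). CDK2AP1 (24.0%) and HDAC8 (18.7%) were the others. Among the 39 members under this limit, 18 were lower (46.2%, against 28.6% of all tested genes) and 8 higher (20.5%, against 29.5%). Their median was again -0.14.

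**Figure D3:**
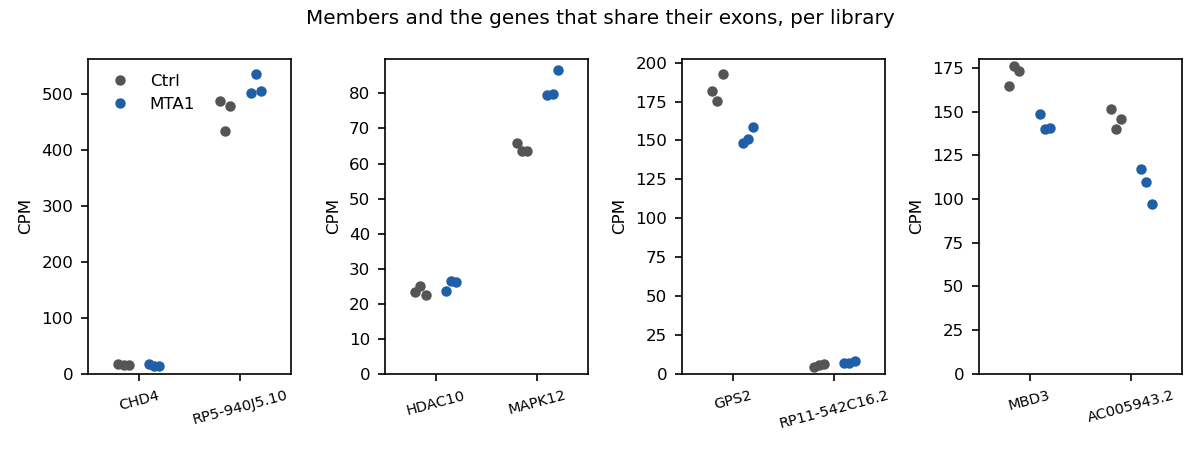
Level in CPM (y axis, from 0) in each Ctrl (grey) and MTA1 (blue) library for 4 members and, beside each, the gene with which it shares exon sequence. CHD4 averages 15.7 CPM in Ctrl while RP5-940J5.10 averages 466 CPM, and MBD3 and GPS2 are the larger of their pairs.

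Of the 6 SIN3 genes, 3 rose and 3 fell, whereas 29.5% of all tested genes were higher and 28.6% lower. At the minimum fold of 1.2, 1 of the 6 passed, against 30.1% of all tested genes. The scaffolds were among the SIN3 genes that rose. SIN3A (ENSG00000169375.16, chromosome 15), the scaffold that brings HDAC1 and HDAC2 to transcription factors, had 2622, 2867 and 2868 counts in Ctrl and 3544, 3774 and 3831 in the MTA1 group. Its level rose from 86.5 ± 1.46 to 120 ± 3.61 CPM (log2 fold change 0.47 ± 0.0414, adjusted p = 8.3e-09), the highest fold change among the 45 genes. SIN3B, its paralog, had 277, 359 and 300 counts in Ctrl and 371, 414 and 403 in the MTA1 group, a rise of 0.39 ± 0.0809 (adjusted p = 3.2e-04). Every MTA1 library lay above every Ctrl library for both scaffolds. SAP130, a SIN3-associated protein, had 485, 474 and 463 counts in Ctrl and 520, 574 and 512 in the MTA1 group, and rose by 0.22 ± 0.0648 (adjusted p = 0.0057).

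SAP18 and SAP30, small proteins named for their association with SIN3, and SUDS3, a dimerizing subunit, fell. SAP18, which is also part of an RNA-bound splicing complex, fell by 0.25 on the log2 scale (SE 0.0379, adjusted p = 1.4e-05). SAP30, the member with the highest FPKM, had 4876, 5366 and 5656 counts in Ctrl and 4437, 4608 and 4855 in the MTA1 group (-0.14 ± 0.0439, adjusted p = 0.0091). Its call ended without Ctrl replicate 3 (adjusted p = 0.060) or MTA1 replicate 2 (0.067), with scaling by library size only (0.16), on both FPKM scales (0.23) and after the correction for GC content and length (0.52). SUDS3 stood at -0.14 ± 0.0543 (adjusted p = 0.033), and lost its call without Ctrl replicate 2 (0.060) or 3 (0.12) and without MTA1 replicate 1 (0.059) or 2 (0.093), with no filter (0.11), with DESeq2 (0.14), with scaling by library size only (0.27) and on log2(FPKM + 0.1) (0.25) and log2(FPKM + 1) (0.26). With the shared HDAC1, HDAC2, RBBP4 and RBBP7 counted in, 6 of 10 SIN3 genes were lower and 3 higher. Over all tested genes, 28.6% were lower and 29.5% higher.

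Of the 5 NCoR genes, 4 fell, and the deacetylase HDAC3 rose slightly. By comparison, 28.6% of all tested genes were lower and 29.5% higher. None of the 5 passed at the minimum fold of 1.2, against 30.1% of all tested genes. HDAC3 (ENSG00000171720.10, chromosome 5), whose activity depends on its corepressor, had 2333, 2555 and 2520 counts in Ctrl and 2561, 2600 and 2647 in the MTA1 group. Its level rose from 76.7 ± 1.26 to 83.8 ± 1.66 CPM (log2 fold change 0.13 ± 0.0417, adjusted p = 0.014), a call that ended without Ctrl replicate 1 (0.066). TBL1X, a WD-repeat adaptor that helps to exchange corepressors for coactivators, had 1110, 1292 and 1142 counts in Ctrl and 907, 987 and 925 in the MTA1 group (-0.28 ± 0.0553, adjusted p = 2.2e-04). Its paralog TBL1XR1 had 992, 978 and 1042 counts in Ctrl and 866, 899 and 799 in the MTA1 group (-0.18 ± 0.0552, adjusted p = 0.0080). The TBL1XR1 call ended with scaling by library size only (0.083) and on log2(FPKM + 0.1) (0.17) and log2(FPKM + 1) (0.18).

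GPS2, a small subunit of NCoR and its most abundant member per length, had 5625, 5746 and 6349 counts in Ctrl and 4514, 4782 and 4926 in the MTA1 group (log2 fold change -0.27 ± 0.0438, adjusted p = 2.9e-05). NCOR1, the large scaffold bound by nuclear receptors, had 2339, 2334 and 2479 counts in Ctrl and 1799, 2272 and 1774 in the MTA1 group. It passed as lower (-0.24 ± 0.0635, adjusted p = 0.0028), but its groups overlapped, since MTA1 replicate 2 lay at 71.7 CPM and Ctrl replicate 2 at 71.3 CPM. The NCOR1 call ended on log2(FPKM + 0.1) (0.10) and log2(FPKM + 1) (0.11).

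Of the 5 CoREST genes, 2 fell (40.0%, against 28.6% of all tested genes), none rose (against 29.5%) and 3 did not pass. Thus 40.0% were called, against 58.1% of all tested genes. Those that fell were PHF21A, a reader of unmethylated histone H3 (log2 fold change -0.22 ± 0.0539, adjusted p = 0.0016), and RCOR3, a CoREST paralog (-0.20 ± 0.0493, adjusted p = 0.0018). Both lost the call on log2(FPKM + 0.1) (adjusted p of 0.075 for PHF21A and 0.051 for RCOR3) and on log2(FPKM + 1) (0.082 and 0.055). RCOR1, the founding CoREST scaffold (-0.08 ± 0.0955), and the zinc finger protein ZMYM2 (-0.07 ± 0.0706) did not pass. RCOR2, the CoREST gene with the highest FPKM, had 520, 538 and 505 counts in Ctrl and 520, 571 and 543 in the MTA1 group. Its groups did not overlap in CPM, but the test did not pass (0.11 ± 0.0608, adjusted p = 0.12), except as higher when libraries were scaled by size only (0.016) and on log2(FPKM + 0.1) (0.020) and log2(FPKM + 1) (0.021). KDM1A, the demethylase of the complex, named after its value was known, stood at -0.02 ± 0.0410 (adjusted p = 0.64).

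Among the 11 zinc-dependent deacetylases, 4 fell, 2 rose and 5 did not pass, so that 54.5% were called, near the 58.1% of all tested genes. Beside HDAC1, HDAC2 and HDAC3, class I holds HDAC8, an X-linked enzyme known for deacetylating cohesin. It had 2892, 2870 and 3041 counts in Ctrl and 2279, 2390 and 2248 in the MTA1 group (log2 fold change -0.30 ± 0.0433, adjusted p = 6.7e-06). HDAC6, the mainly cytoplasmic tubulin deacetylase of class IIb, had 489, 502 and 514 counts in Ctrl and 569, 645 and 649 in the MTA1 group. It rose from 15.6 ± 0.250 to 20.0 ± 1.17 CPM (0.36 ± 0.0608, adjusted p = 4.4e-05).

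The class IIa enzymes, which shuttle between nucleus and cytoplasm and have little catalytic activity of their own, held 2 genes that fell, HDAC7 and HDAC9, and 2 that did not pass. HDAC7, the most abundant of the 4 by FPKM, had 2504, 2440 and 2560 counts in Ctrl and 2052, 2110 and 1892 in the MTA1 group (log2 fold change -0.26 ± 0.0487, adjusted p = 1.3e-04), and 11.2% of its exon bases overlap genes on the opposite strand. HDAC9 had 15, 12 and 11 counts in Ctrl and 6, 4 and 4 in the MTA1 group. Its fold change of -1.37 ± 0.395 (adjusted p = 0.0059) rests on these few counts, and the call ended with DESeq2 (adjusted p = 0.077), on log2(FPKM + 0.1) (0.21) and on log2(FPKM + 1) (0.45). HDAC4 had 163, 219 and 173 counts in Ctrl and 167, 176 and 188 in the MTA1 group (-0.01 ± 0.107). HDAC5 had 1035, 1115 and 1170 counts in Ctrl and 948, 1049 and 1061 in the MTA1 group (-0.07 ± 0.0525), and passed as lower after the correction for GC content and length (adjusted p = 0.011). The signs of HDAC4 (0.06) and HDAC5 (0.0004) turned when libraries were scaled by size only. HDAC11, the only class IV enzyme, stood at 0.01 ± 0.0998.

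The sirtuins went in both directions. SIRT7 (ENSG00000187531.14, chromosome 17), a nucleolar enzyme linked to ribosomal RNA transcription, had 1257, 1306 and 1446 counts in Ctrl and 1656, 1734 and 1733 in the MTA1 group. It rose from 41.5 ± 2.16 to 54.9 ± 0.788 CPM (log2 fold change 0.40 ± 0.0489, adjusted p = 6.0e-07). SIRT5 (ENSG00000124523.17, chromosome 6), a mitochondrial enzyme that removes succinyl and malonyl groups, had 314, 321 and 340 counts in Ctrl and 248, 217 and 233 in the MTA1 group. It fell from 10.1 ± 0.272 to 7.50 ± 0.646 CPM (-0.43 ± 0.0817, adjusted p = 1.4e-04), and 16.1% of its exon bases overlap a gene on the opposite strand in the annotation. The groups did not overlap for either gene.

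SIRT6, a chromatin-bound enzyme of DNA repair, had 298, 335 and 319 counts in Ctrl and 380, 328 and 365 in the MTA1 group (log2 fold change 0.22 ± 0.0789, adjusted p = 0.020). Its call ended without Ctrl replicate 1 (0.067) or 3 (0.068) or MTA1 replicate 1 (0.11) and with DESeq2 (0.097). SIRT1, the best-known nuclear sirtuin, had 191, 262 and 236 counts in Ctrl and 173, 172 and 215 in the MTA1 group (-0.25 ± 0.110, adjusted p = 0.061). Without Ctrl replicate 1 (0.014) or MTA1 replicate 3 (0.0090) it passed as lower, as it did with no filter (0.046) and with the correction for GC content and length (0.049). SIRT2 (-0.15), SIRT3 (0.16) and SIRT4 (-0.07) did not pass, though SIRT3 passed as higher with scaling by library size only (adjusted p = 0.025).

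Levels of different genes were compared on FPKM, which is scaled for gene length. Within the MTA family, MTA1 made up 16.6% ± 0.579 of the summed FPKM in Ctrl (16.24%, 17.3% and 16.4%) and 9.41% ± 0.532 in the MTA1 group (9.50%, 9.89% and 8.84%). MTA2 was the main paralog in all libraries, at 74.7% ± 1.21 in Ctrl and 79.5% ± 0.192 in the MTA1 group. RBBP4 held 28.2% ± 0.507 of the RBBP4 and RBBP7 sum in Ctrl (28.4%, 28.6% and 27.7%) and 39.1% ± 0.612 in the MTA1 group (38.5%, 39.2% and 39.7%). HDAC1 held 73.2% ± 2.30 of the HDAC1 and HDAC2 sum in Ctrl and 66.5% ± 1.69 in the MTA1 group. The shares did not overlap between the groups in these 3 families.

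The shares within the SIN3 and MBD pairs overlapped between the groups. SIN3A held 86.3% ± 1.25 of the SIN3A and SIN3B sum in Ctrl and 86.9% ± 0.280 in the MTA1 group, and MBD2 held 45.7% ± 0.726 and 45.7% ± 2.33 of the MBD2 and MBD3 sum. GATAD2A went from 75.3% ± 1.30 to 70.9% ± 0.249 of its pair, and RCOR2 from 47.3% ± 2.28 to 52.3% ± 0.506 of the 3 RCOR genes. Of 17 shares computed in 10 families, 10 reached p = 0.10 in a 2-sided exact permutation test over the 6 libraries, which is the smallest p this design allows (adjusted p = 0.17 over the 17 shares). No share could therefore pass 0.05. The 10 include MTA1, MTA2 and MTA3, the family of the targeted gene. Shares within a family depend on each other, since a fall in one raises the rest. The level of a share rests on the gene lengths behind the deposited FPKM. The counts and FPKM implied a length of 17.3 kb for HDAC2 against 4.48 kb for HDAC1, and on CPM, with no length scaling, HDAC1 held 41.5% ± 2.86 in Ctrl and 33.9% ± 1.73 in the MTA1 group.

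**Figure D4:**
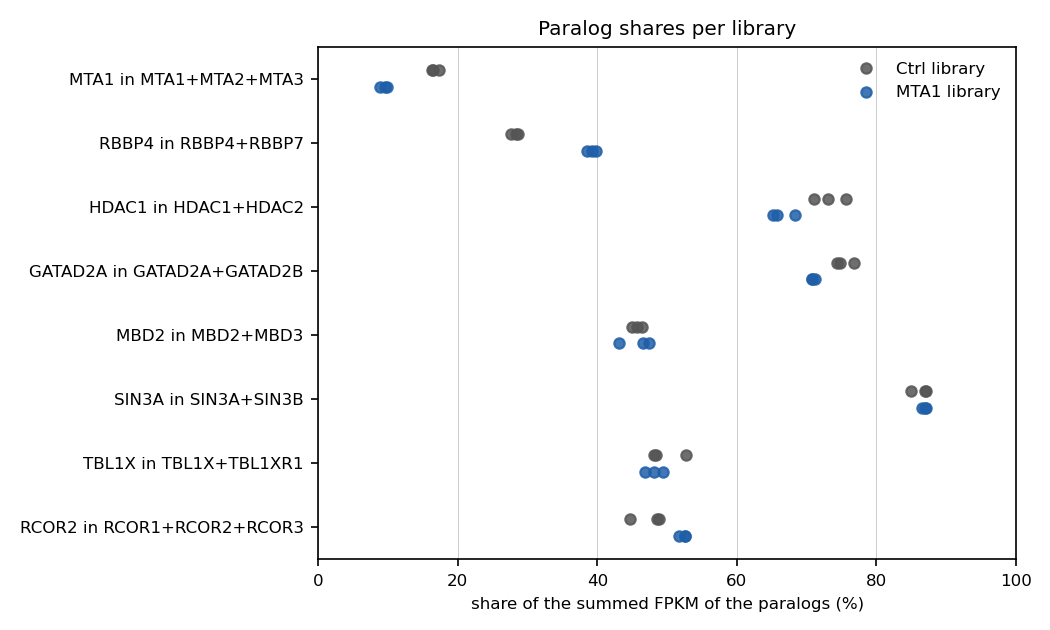
Share of 1 gene in the summed FPKM of its paralogs (x axis, percent) in each Ctrl (grey) and MTA1 (blue) library. The MTA1, RBBP4, HDAC1, GATAD2A and RCOR2 shares do not overlap between the groups, whereas the MBD2, SIN3A and TBL1X shares do.

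Summed over each set, the FPKM of the NuRD genes was 183 ± 4.55 in Ctrl and 152 ± 2.21 in the MTA1 group, or 83.3% of Ctrl. This sum holds the uncertain CHD4 row, at 1.07 FPKM in Ctrl and 1.06 in the MTA1 group. It leaves out RP5-940J5.10, which shares most CHD4 words and had 47.3 ± 2.55 FPKM in Ctrl and 54.7 ± 1.92 in the MTA1 group. The sum of the SIN3 genes, most of it SAP30, was 176 ± 5.101 in Ctrl and 168 ± 6.46 in the MTA1 group. The CoREST sum was 12.6 ± 0.150 in Ctrl and 12.6 ± 0.205 in the MTA1 group, and the NCoR sum 74.4 ± 2.10 and 68.9 ± 1.95. Class I deacetylases went from 81.5 ± 2.30 to 71.7 ± 1.46 and class IIa from 11.05 ± 0.144 to 10.2 ± 0.123. Class IIb went from 5.39 ± 0.261 to 6.35 ± 0.416 and the sirtuins from 13.8 ± 0.657 to 16.7 ± 0.761. These sums are descriptions, since the most abundant genes decide them. They use the deposited FPKM without TMM, unlike the fold changes above. The median log2 fold change of all tested genes was 0.06 on log2(FPKM + 0.1) and 0.0015 with TMM.

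Next to the members, 3 lists of partner genes were examined. Of 31 further corepressor subunits, 30 were tested, of which 10 were higher (33.3%, against 29.5% of all tested genes) and 6 lower (20.0%, against 28.6%). The 10 higher became 5 without Ctrl replicate 3, 5 with DESeq2 and 2 at the minimum fold of 1.2 (6.67%, against 15.5% of all tested genes). SAP30L, the paralog of SAP30, fell from 35.7 ± 0.610 to 19.3 ± 0.721 CPM (log2 fold change -0.89 ± 0.0524), HMG20B, a DNA-binding CoREST subunit, from 675 ± 21.8 to 417 ± 18.8 CPM (-0.69 ± 0.0428), and ING2, a SIN3 subunit that reads methylated histone H3, from 21.1 ± 0.308 to 13.7 ± 0.614 CPM (-0.62 ± 0.0594). The transcription factor TRERF1, a subunit of the mitotic deacetylase complex family, rose from 10.7 ± 0.734 to 17.5 ± 1.23 CPM (0.71 ± 0.0726), and ZNF217, a zinc finger partner of CoREST, from 6.58 ± 0.481 to 10.3 ± 0.346 CPM (0.64 ± 0.0818). All of these 5 had an adjusted p no larger than 1.2e-06. ZNF827, which recruits NuRD, stood near 1 CPM (0.58 ± 0.234, adjusted p = 0.039), and its call ended without Ctrl replicate 1 (0.16) or 3 (0.094) and without MTA1 replicate 2 (0.074) or 3 (0.11), with DESeq2 (0.17), on log2(FPKM + 0.1) (0.052) and log2(FPKM + 1) (0.13), and after the correction for GC content and length (0.068).

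The histone acetyltransferases, which add the marks that the members remove, were a list of 14 genes, of which 5 were lower (35.7%, against 28.6% of all tested genes) and 2 higher (14.3%, against 29.5%), with a median of -0.08. This balance turned with scaling by library size only, at 2 lower and 4 higher. With DESeq2, 2 were lower and 2 higher, and on both FPKM scales 1 was lower and 2 higher. Of all called genes, 50.8% were higher in the main fit and 50.1% with DESeq2. That share was 60.1% with scaling by library size only, 60.1% on log2(FPKM + 0.1) and 60.3% on log2(FPKM + 1). At the minimum fold, 1 acetyltransferase was higher and none lower (7.14% in all, against 30.1% of all tested genes). The median was -0.02 with scaling by library size only, -0.01 on both FPKM scales, -0.13 after the correction for GC content and length, -0.04 without Ctrl replicate 1 and -0.05 without MTA1 replicate 3. KAT2A, the GCN5 enzyme of the SAGA complex, rose from 23.3 ± 0.930 to 37.5 ± 1.31 CPM (log2 fold change 0.69 ± 0.0530, adjusted p = 1.1e-09), and KAT6A by 0.46 ± 0.130 (adjusted p = 0.0047). NCOA1 (-0.45 ± 0.142), NAA60 (-0.28 ± 0.0855) and KAT8 (-0.16 ± 0.0509) fell, each with an adjusted p of at most 0.011. NCOA1 (adjusted p = 0.073) and NAA60 (0.064) did not pass with DESeq2, and KAT8 did not pass without Ctrl replicate 3 (0.060) or with scaling by library size only (0.13). NAA60 lost its call on log2(FPKM + 0.1) (0.074) and log2(FPKM + 1) (0.062), and so did KAT8 (0.13 on both). EP300 and CREBBP, named after their values were known, stood at -0.11 ± 0.0719 and -0.05 ± 0.0625 and did not pass.

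Genes that supply or consume NAD, the cosubstrate of sirtuins, passed in 8 of 10 tested cases (80%, against 58.1% of all tested genes), 3 as higher and 5 as lower. The shares of all tested genes were 29.5% higher and 28.6% lower. At the minimum fold, 1 NAD gene was higher and 4 lower, whereas 15.5% of all tested genes were higher and 14.7% lower. NAMPT, the rate-limiting enzyme of NAD salvage, rose from 54.5 ± 0.672 to 97.5 ± 3.88 CPM (log2 fold change 0.84 ± 0.0444, adjusted p = 3.9e-12). NADSYN1 (0.26 ± 0.0537) and the NAD kinase gene NADK (0.26 ± 0.0445) rose as well. QPRT, the entry from tryptophan breakdown, fell from 266 ± 10.8 to 190 ± 6.01 CPM (-0.48 ± 0.0420, adjusted p = 6.7e-09), and NNMT, which methylates nicotinamide, from 556 ± 12.96 to 411 ± 28.1 CPM (-0.44 ± 0.0463, adjusted p = 1.0e-07). NMNAT2, an enzyme of the last step of NAD synthesis, stood at 2.998 CPM in Ctrl and fell by 0.80 on the log2 scale (SE 0.153, adjusted p = 1.6e-04).

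**Figure D5:**
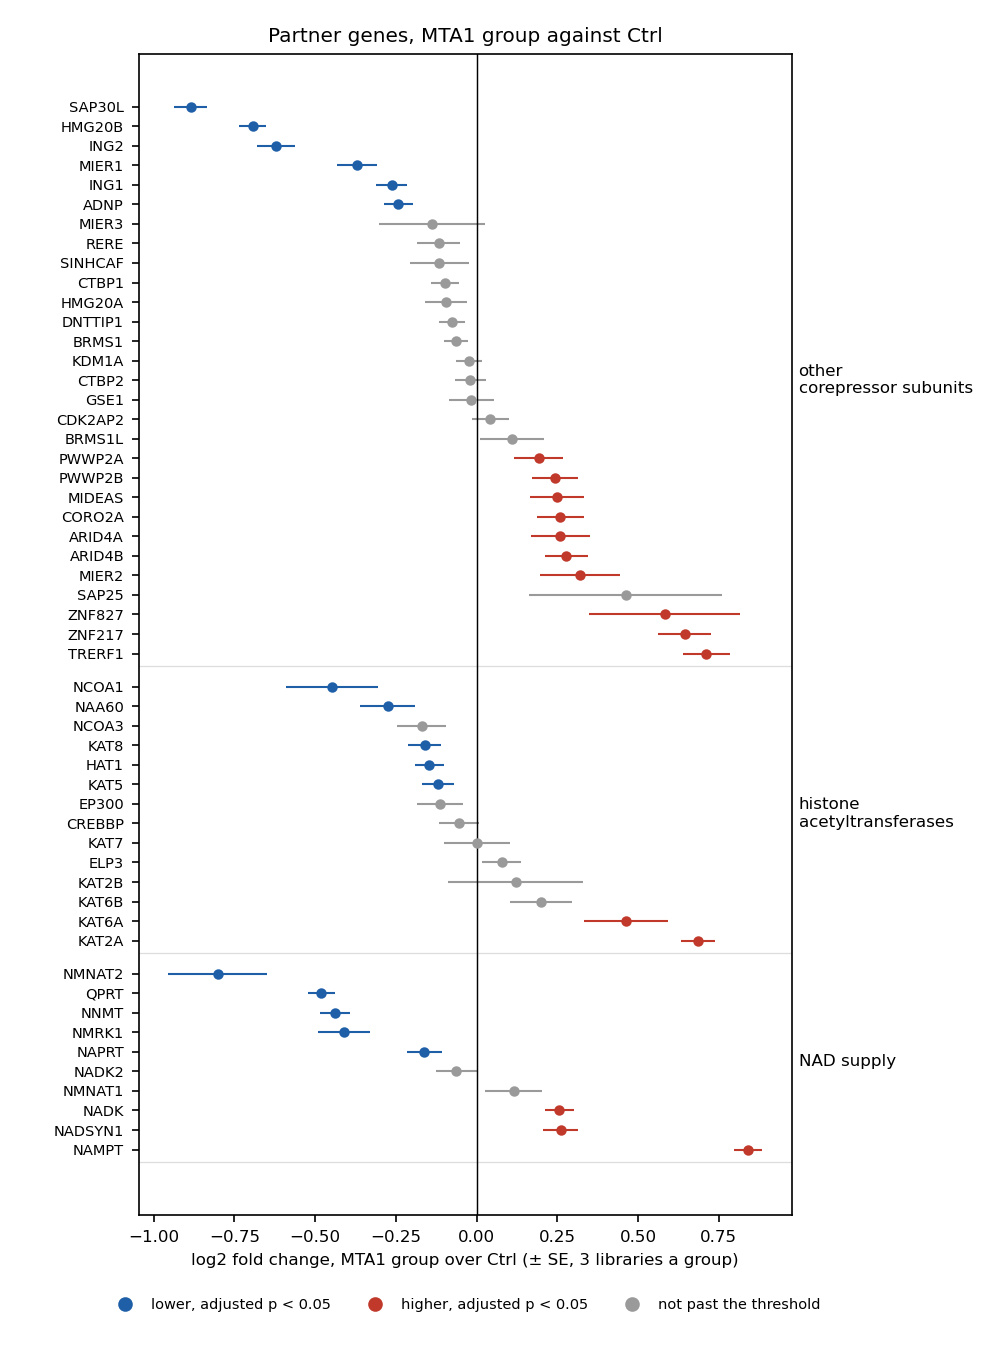
Log2 fold change of the MTA1 group over Ctrl (x axis, ± SE, 3 libraries a group) for tested genes of the 3 partner lists. NAMPT (0.84), TRERF1 (0.71) and KAT2A (0.69) lie furthest to the right and SAP30L (-0.89) and NMNAT2 (-0.80) furthest to the left.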

How the data were processed

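Total RNA of 6 PC-3 libraries was made into stranded libraries and read in pairs on an Illumina NovaSeq, per the labels' protocols. The authors deposited read counts per gene without normalization, and FPKM values scaled for gene length and depth and rounded to 2 decimals, per the file headers and values. Aligner, counting rule, strand setting, build and annotation: not given in the sources used here. DESeq2 appears in the submitters' processing notes without a role. Columns with the prefix shMTA1 belong to the MTA1 samples by name. Those with the prefix NC were taken as Ctrl by elimination, and numbers were kept.

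The count table was fitted in edgeR 4.0.16 under R 4.3.3, with filterByExpr (15423 genes kept), TMM, and the quasi-likelihood test with group as the only term. It was 2-sided and adjusted by Benjamini-Hochberg across every tested gene, with a threshold of 0.05. Standard errors come from the same fit. The code was tested on simulated data. Alternatives used DESeq2 1.42.0, limma 3.58.1 on log2 FPKM (pseudocounts 0.1 and 1), a minimum fold of 1.2, other scalings and filters, a replicate block and each library left out. The correction for GC content and length was added after the data were seen. Shared 50-base words and exon overlaps came from GENCODE release 29, which held the identifiers of all 45 members. The files' annotation may differ from it.

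The members, lists and tests were chosen with earlier results of these data known. Given in full are MTA1, the 10 lowest and 8 highest fold changes past the threshold, their paralogs, and the gene with the highest FPKM of each complex. Of each partner list, up to 3 genes in each direction are named. Other partner genes are marked as named after their values were known. A partner gene and a marker gene are not reported here.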

Additional observations from a re-analysis of the deposited data

How the results depend on the processing

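Outside the minimum-fold test, 15 of the 22 lower members and 5 of the 8 higher ones (HDAC6, SAP130, SIN3A, SIN3B and SIRT7) kept their call in every alternative that tested them. With a minimum fold of 1.2, 5 members were lower and 2 higher. With each library left out in turn, 20 to 23 were lower and 5 to 8 higher. With the replicate block 23 were lower and 8 higher, since SIRT1 passed as lower (adjusted p = 0.042). Same-numbered libraries did not deviate together (correlations of 0.067, -0.021 and 0.019), so the numbers were not taken as pairs. Members and medians whose log2 fold change turned sign all lay close to 0, and the cause was not tested. Scaling by library size only gave 0.0030 for the median of the sirtuins and for SIRT4, 0.0465 for the median of the other corepressor subunits, 0.0395 for MTA3, 0.0453 for HDAC2, 0.0553 for HDAC4 and 0.0004 for HDAC5. On log2(FPKM + 0.1) and log2(FPKM + 1), the median of the other corepressor subunits was 0.0425 and 0.0267, MTA3 0.0369 and 0.0278, HDAC2 0.0454 and 0.0431, HDAC4 0.0360 and 0.0112, and HDAC5 0.0004 on both. The filter of 1 CPM gave 0.0026 for the sirtuin median, and the correction for GC content and length gave 0.0308 for that median and SIRT4 and -0.0097 for HDAC11. DESeq2 size factors gave -0.0001 for HDAC11. With 1 library left out, values ran from -0.1334 to 0.0375 for the sirtuin median, -0.0454 to 0.0035 for the other corepressor subunits, -0.0785 to 0.0090 for MTA3, -0.0770 to 0.0094 for HDAC2, -0.0783 to 0.1072 for HDAC4, -0.0273 to 0.0642 for HDAC11 and -0.2160 to 0.0375 for SIRT4. Differences in share ran from -0.873 to 1.34 percentage points for MBD2, -0.165 to 0.964 for SIN3A and -0.768 to 0.137 for RCOR1, which stood at 0.214 on CPM. Depth limits HDAC9 and SIRT4, which had at most 40 counts in a library and fell out under the filter of 1 CPM in 3 libraries.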
